A study of Mus musculus with 20 samples.

Results

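Of the 24062 genes measured in microglia of mThy1-α-synuclein and wild-type mice, 8 genes for costimulatory and checkpoint ligands are described here. Through such surface proteins an antigen-presenting cell raises or restrains the response of a T cell. The 8 are a chosen part of the genes of this kind. They were taken by gene symbol, and no measured value enters the rule that lists them. The costimulatory members are Cd80, Cd86, Icosl and Cd40, and the members of the checkpoint kind are Cd274 (PD-L1), Pdcd1lg2 (PD-L2), Cd276 (B7-H3) and Vsir (VISTA). Vsir is listed under its older symbol 4632428N05Rik. All 8 were measured in each of the 20 mice and passed the filter on low values at both ages.

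A T cell needs a signal beside that of its antigen receptor. CD80 and CD86 give it through CD28 and withhold it when CTLA-4 takes them instead, ICOS ligand acts through ICOS, and CD40 is itself a receptor that answers CD40 ligand on the T cell. PD-L1 and PD-L2 bind PD-1 and lower T cell activity, and VISTA and B7-H3 are relatives of the same B7 family. Resting microglia are known to carry little of most of these proteins and to raise several of them on activation, while VISTA is known as an abundant microglial transcript.

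The study asked how microglial transcripts changed when full-length human wild-type α-synuclein was overexpressed. The transgene is driven by the murine Thy-1 promoter, sits on the X chromosome and is carried on the B6D2F1/J background. RNA was sequenced from male mice only, 6 mThy1-α-synuclein and 4 wild-type littermates at 7 months and 5 and 5 at 10 months, with 1 whole brain per sample and no pooling. The wild-type mice carried no transgene, and no mouse received a treatment. The series description names IBA1 for the selection of the cells and the methods of the study name CD11b magnetic beads. Such beads also hold other CD11b-positive cells. Mice of an age were handled together from euthanasia to RNA and normalized together, so age and handling cannot be told apart in any difference between the ages.

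Between 33404096 and 77806399 reads per mouse were counted on genes. Thy1, whose promoter drives the transgene, ranged from 392 to 1298 normalized counts with the transgene and from 17.7 to 47.6 without it at 7 months, and between 1117 and 1741 against 9.41 and 32.4 at 10 months, so that no mouse went against its label. All 8 microglial markers were detected in each group, with summed values of at least 1579370 normalized counts in each mouse, against at most 508.7 for 5 T cell markers and 383198 for 5 neutrophil markers.

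The ligands differed widely in level. A normalized count is a number of reads on a gene divided by the size factor of the mouse, and to compare genes it was divided by the length of all exons of the gene. On this scale Vsir held 72.2% of the sum of the 8 members, averaged over the 20 mice, and Cd86 17.8%. Icosl followed with 5.22%, Cd274 with 1.95%, Cd80 with 1.59% and Cd276 with 1.09%. Cd40 and Pdcd1lg2 were scarce, at 0.113% and 0.0577%.

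In normalized counts per kb, the mean over 20 mice was 16496 ± 1378 (SD) for Vsir, 4074 ± 632 for Cd86 and 1194 ± 151 for Icosl. These steps held in each mouse, since Vsir lay above Cd86 and Cd86 above Icosl in 20 of 20, and Icosl above Cd274 in 20 of 20. Cd274 (446 ± 94.2) and Cd80 (362 ± 50.3) lay closer, with Cd274 above Cd80 in 17 of 20 mice. Cd80 lay above Cd276 (250 ± 105) in 14 of 20, and these neighbours in the order were not apart beyond their spread. Cd40 (25.7 ± 8.56) and Pdcd1lg2 (13.1 ± 7.08) were in the lower part of the genes that passed the filter on low values. Among 14311 such genes with a known length, ranked by level per length, they stood at the 23.7 and 18.1 percentiles. Vsir stood at 99.3 and Cd86 at 96.8.

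**Figure D1:**
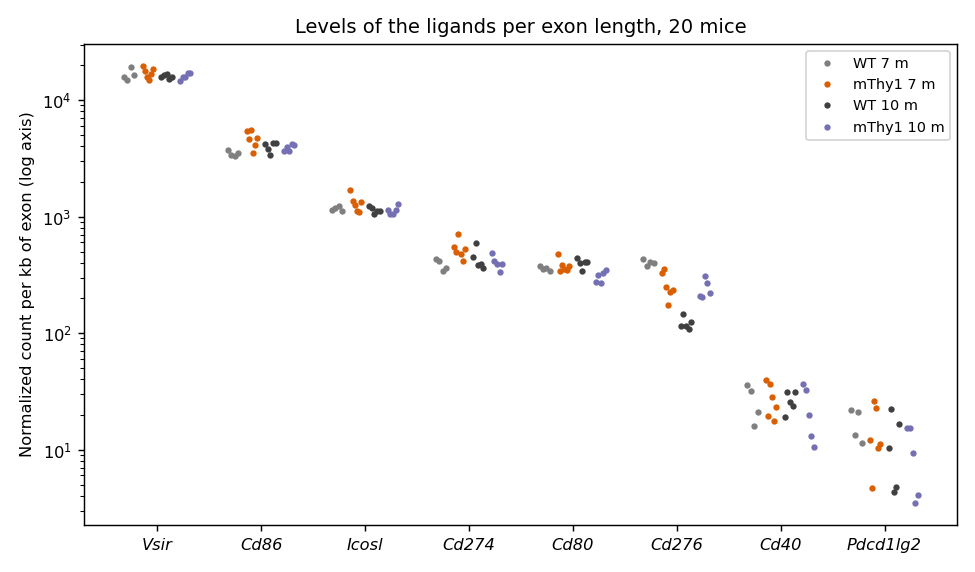
Normalized read count per kb of exon for each ligand (x axis, ordered by mean; log y axis), 1 point per mouse, coloured by genotype and age. Vsir and Cd86 stand above the rest in every mouse, and Cd276 is the member whose 4 groups lie farthest apart.

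Cd276 was the member that changed most, and it changed in opposite directions at the 2 ages. B7-H3 is a B7 family protein for which both stimulating and inhibiting effects on T cells are known. The gene lies on the minus strand at chr9:58524298-58555437 in the mm10 (GRCm38) build. Its promoter and that of Cd80, the other member that passed a test, are shown here so that their composition can be compared. Each is the stretch of 250 bases before the RefSeq start (GRCm38.p6), at chr9:58555034-58555283 on the minus strand and at chr16:38458683-38458932 on the plus strand, and both stretches lie inside the longer gene spans of the GENCODE annotation. Capitals mark the GC box letters GGGCGG and the AP-1 letters TGANTCA, read on both strands.
Cd276: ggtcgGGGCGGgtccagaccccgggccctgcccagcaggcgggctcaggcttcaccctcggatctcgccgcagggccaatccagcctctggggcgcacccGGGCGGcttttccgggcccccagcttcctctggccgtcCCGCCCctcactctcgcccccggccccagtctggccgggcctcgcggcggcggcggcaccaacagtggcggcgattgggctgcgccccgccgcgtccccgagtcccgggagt
Cd80: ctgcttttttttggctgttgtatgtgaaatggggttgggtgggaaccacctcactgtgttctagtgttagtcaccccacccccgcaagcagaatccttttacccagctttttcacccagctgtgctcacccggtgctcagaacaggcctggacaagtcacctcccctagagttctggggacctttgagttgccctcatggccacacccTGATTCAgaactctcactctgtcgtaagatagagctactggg
The Cd276 stretch was 77.6% G and C with 29 CpG dinucleotides, and 97.6% of 32851 promoters of this length held less G and C. It contained 3 GC boxes, which 32.7% of promoters hold at least once. The Cd80 stretch was 52.8% G and C with 3 CpG dinucleotides, near the median of all promoters (52.4% and 6), and held 1 AP-1 match, as 6.75% of promoters did. Neither stretch held the interferon-γ activated site letters TTCNNNGAA, the core of the interferon-stimulated response element or the PU.1 letters GAGGAAGT, which 7.02%, 2.98% and 2.44% of promoters hold. The same was true of Icosl, Cd274, Pdcd1lg2 and Vsir, where Vsir held 2 GC boxes, Icosl and Cd274 held 1 each and Pdcd1lg2 held none. A match is a description of letters and not of a binding site.

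At 7 months the Cd276 normalized counts were 1378, 1460.1, 1477 and 1574 in the wild-type mice. In the 6 mThy1-α-synuclein mice the lowest was 637, the median 881 and the highest 1309.7. All mThy1-α-synuclein mice lay below all wild-type mice. At this age 7.53% of the 13887 genes tested separated the genotypes, 3.97% with lower and 3.55% with higher values in mThy1-α-synuclein mice. The mean fell from 1472 ± 80.4 (SD, n = 4) to 953 ± 250.2 (n = 6), a log2 fold change of -0.67 (SE 0.165, limma with Benjamini-Hochberg adjusted p = 0.0353), or 0.63-fold with a 95% interval of 0.492 to 0.806. The call depended on single mice. The adjusted p lay between 0.00886 and 0.118 when each mouse was left out in turn, and it was above 0.05 without mThy1-α-synuclein mouse 3, 5 or 6 or without any of the 4 wild-type mice.

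The order was turned at 10 months. The wild-type mice had 398, 418, 420.4, 458 and 529 Cd276 counts and the mThy1-α-synuclein mice had 743, 757, 803, 989.8 and 1133. The lowest mThy1-α-synuclein mouse was again separate from the nearest wild-type mouse, a separation that 7.27% of the 13627 genes tested showed (3.78% with higher and 3.49% with lower values under the transgene). The mean rose from 445 ± 51.9 (SD, n = 5) to 885 ± 170.3 (n = 5), a log2 fold change of 0.98 (SE 0.128, limma adjusted p = 0.000905), or 1.97-fold (95% interval 1.63 to 2.38). This call was kept under each alternative setting and without each mouse in turn.

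The genotype effect on Cd276 at 10 months minus that at 7 months was 1.65 on the log2 scale (SE 0.217, limma adjusted p = 0.000189), which placed it at rank 7 of 14457 genes ordered by p. Of 13484 genes tested at both ages, 0.734% were called at both, 33 (0.245%) with opposite signs, and 17 of them (0.126%) were, like Cd276, lower at 7 months and higher at 10 months. The 2 mThy1-α-synuclein groups had close means, 953 and 885, while the wild-type means were 1472 at 7 months and 445 at 10 months. With size factors set over all 20 mice the means were 918 in both mThy1-α-synuclein groups, against 1421 and 461 in the wild-type groups. The difference between the wild-type groups cannot be told apart from the separate handling of the ages.

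Neuronal markers moved with Cd276 at 7 months. The 6 neuronal markers summed to between 361 and 873 normalized counts in wild-type mice and between 154 and 323 in mThy1-α-synuclein mice, and 3 of the 6 (Syt1, Rbfox3 and Slc17a7) were called lower. At 10 months the sums overlapped, at 159 to 287 and 196 to 413, with none of the 5 tested markers called by limma, edgeR or DESeq2 and 1 at an unadjusted p under 0.05. All 5 had a positive log2 fold change, as Cd276 did at that age, with a median of 0.63. In the difference between the ages limma called 2 of 6 neuronal markers (Syt1 and Rbfox3) and 2 of 6 astrocyte markers (Slc1a2 and Gja1) in the direction of Cd276. There edgeR and DESeq2 each called 4 neuronal and 2 astrocyte markers, and all 6 neuronal values were positive. Astrocyte markers went both ways at 7 months. Gja1 was called lower (log2 fold change -1.77, limma adjusted p = 0.011), and Slc1a3, opposite to Cd276, higher (0.35, limma adjusted p = 0.0262). The astrocyte sums of that age overlapped, at 8636 to 11043 in wild-type and 9492 to 12253 in mThy1-α-synuclein mice. At 10 months all 6 astrocyte markers had a positive log2 fold change, with a median of 0.59 and 1 called by limma. At 7 months 2 of 6 endothelial markers (Cldn5 and Pecam1) were also lower, and the endothelial sum did not overlap between the genotypes (4886 to 5967 in wild-type mice, 3102 to 4593 in mThy1-α-synuclein mice). No marker of these lists was at 0 in all mice of a group. Within groups, over 20 mice that share libraries and depth, Pearson's r of Cd276 with the summed markers was -0.19 for neurons, -0.07 for astrocytes and 0.11 for endothelial cells, and it was 0.32 for microglia, -0.47 for monocytes and -0.37 for neutrophils. The part of these cells in the Cd276 result was not tested, and in bulk RNA fewer cells of a type and less RNA per cell cannot be told apart.

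**Figure D2:**
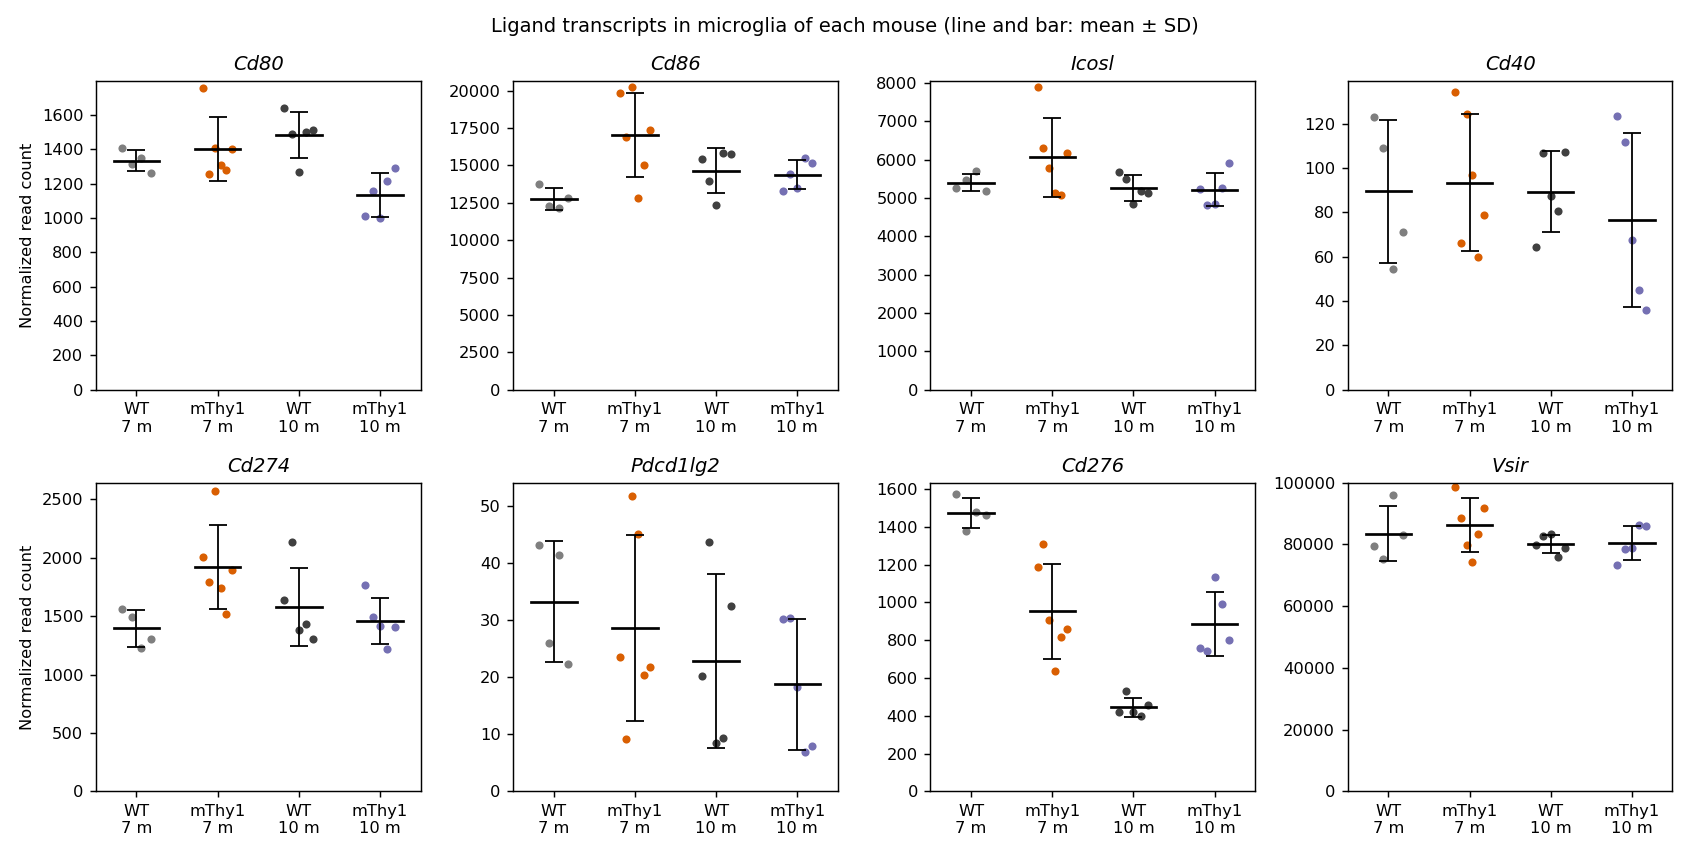
Normalized read count of each ligand (y axis, from 0) in each mouse (points) of the wild-type (WT) and mThy1-α-synuclein (mThy1) groups at 7 and 10 months (m), with mean and SD. Cd276 is the panel in which the genotypes do not overlap at either age, with wild-type mice above at 7 months and below at 10 months.

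Cd80, which encodes B7-1 and is the scarcer of the CD28 ligands, was lower in mThy1-α-synuclein mice at 10 months. The wild-type counts were 1268, 1490.2, 1499.9, 1516 and 1638 and the mThy1-α-synuclein counts 998, 1009, 1157, 1218 and 1291. Of the 5 mThy1-α-synuclein mice, 4 lay below all wild-type mice and the highest lay just above the lowest wild-type mouse. The mean fell from 1482 ± 134 to 1135 ± 129 (SD, n = 5 each), a log2 fold change of -0.39 (SE 0.0936, limma adjusted p = 0.0245), or 0.764-fold (95% interval 0.665 to 0.878). Leaving out mThy1-α-synuclein mouse 1 or 3 or wild-type mouse 1, 2 or 5 raised the adjusted p above 0.05, to at most 0.0646.

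No such difference was seen for Cd80 at 7 months. The wild-type counts were 1262, 1317, 1351 and 1407, and the mThy1-α-synuclein counts had a lowest value of 1256, a median of 1357 and a highest value of 1759.9. The groups overlapped, and the highest mouse stood apart from its group. The log2 fold change was 0.06 (95% interval -0.14 to 0.27, limma adjusted p = 0.743). The effect at 10 months minus that at 7 months was -0.45 (SE 0.135, limma adjusted p = 0.0454), just past the threshold, and 14 of 20 fits without 1 mouse gave an adjusted p above 0.05, with a range of 0.024 to 0.0896.

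Myeloid markers moved with Cd80 at 10 months. Monocyte markers summed to between 24341 and 47805 normalized counts in wild-type mice and 14344 and 24239 in mThy1-α-synuclein mice without overlap, and 3 of 5 (Plac8, Chil3 and Fn1) were called lower, as were 3 of 6 border macrophage markers (Mrc1, Pf4 and F13a1). Microglial markers went the other way, with Cx3cr1, Sall1 and Itgam higher among 8. Pearson's r of Cd80 within groups was -0.26 with the monocyte sum, 0.40 with the border macrophage sum and 0.55 with the microglial sum over the 20 mice. The sums of 5 T cell markers did not overlap either, at 248 to 453 in wild-type and 98.4 to 148 in mThy1-α-synuclein mice, with 1 of 3 tested markers called lower (Cd3d) and an r of -0.13 with Cd80. Of the other marker lists, 1 of 5 neutrophil markers (Retnlg) was lower at 10 months, and of 7 dendritic cell markers Cd209a was lower and Siglech, which microglia also express, was higher. Among B cell markers limma, edgeR and DESeq2 called 0 of the 3 tested, with 1 at an unadjusted p under 0.05, and Aldh1l1 was higher among 6 astrocyte markers. The part of these cells in the Cd80 result was not tested. The nearest gene that also passed the test was Timmdc1, a mitochondrial complex I assembly factor 2.01 kb from Cd80 on the other strand, which fell by 0.32 on the log2 scale at 10 months (limma adjusted p = 0.0344) and was the only one called of 10 tested neighbours within 500 kb. Whether the read counts used strand is not given in the sources used here.

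Cd86, which encodes B7-2, was the most abundant costimulatory member. At 7 months the wild-type counts were 12139, 12291, 12827 and 13781, and those of mThy1-α-synuclein mice ran from 12827 through a median of 17122 to 20225. Here 5 of 6 mThy1-α-synuclein mice lay above all wild-type mice. The log2 fold change of 0.40 (SE 0.111, 95% interval 0.16 to 0.64, 1.32-fold) missed the threshold with a limma adjusted p of 0.0522. On the recovered reads the adjusted p was 0.0405 with edgeR and 0.00713 with DESeq2, and it was also under the threshold without mThy1-α-synuclein mouse 4 or 5 (lowest 0.0066). The other 8 limma fits without 1 mouse gave an adjusted p above 0.05, up to 0.148. Without a filter on low values it was 0.0617, and with a replicate block 0.0697. Within groups, Pearson's r of Cd86 over the 20 mice was 0.78 with the microglial marker sum and -0.64 with the monocyte sum. The microglial sum at 7 months lay between 1715500 and 1942090 in wild-type and between 1790310 and 2094760 in mThy1-α-synuclein mice, and limma called none of its 8 markers (2 at an unadjusted p under 0.05, 0 with edgeR and 1 with DESeq2). Its part in the Cd86 values was not tested.

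The Cd86 counts at 10 months were 12362, 13940.5, 15399.5, 15729.7 and 15827 in wild-type and 13288, 13487, 14422, 15154 and 15496 in mThy1-α-synuclein mice. The mThy1-α-synuclein values all lay within the wild-type range. The log2 fold change was -0.02 (95% interval -0.19 to 0.14, limma adjusted p = 0.888). The difference between the ages was -0.43 (SE 0.141, limma adjusted p = 0.0719), past the threshold with DESeq2 (0.037) and without mThy1-α-synuclein mouse 4 at 7 months or wild-type mouse 3 at 10 months. The other 18 limma fits without 1 mouse gave an adjusted p above 0.05, up to 0.123.

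The mean transcript ratio of the CD28 ligands, Cd86 to Cd80, was higher in mThy1-α-synuclein mice at both ages. The ratio of Cd86 to Cd80 within a mouse does not depend on the size factor. At 7 months it was 8.98, 9.32, 9.79 and 10.2 in wild-type mice and ran from 9.79 through a median of 12.1 to 14.3 in mThy1-α-synuclein mice, so that 5 of 6 lay above all wild-type mice. At 10 months it was 9.35, 9.39, 9.75, 10.4 and 10.5 in wild-type and 11.7, 12.5, 12.7, 13.2 and 13.5 in mThy1-α-synuclein mice, with no overlap. Of the 13627 single genes tested at 10 months, 7.27% separated the genotypes in this way.

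The mean log2 ratio was higher in mThy1-α-synuclein mice by 0.34 at 7 months (1.26-fold, two-sided exact permutation p = 0.019, adjusted over 4 tests 0.0381) and by 0.36 at 10 months (1.29-fold, exact permutation p = 0.00794, adjusted 0.0317). The latter is the smallest p that 5 against 5 mice can give. Without each mouse in turn the exact permutation p, not adjusted over the 4 tests, lay between 0.00794 and 0.0476 at 7 months and at 0.00794 at 10 months. The value of 0.0476 came without wild-type mouse 1, 2 or 3. The ratio rose at 7 months with Cd86 at 1.32-fold and Cd80 at 1.04-fold, and at 10 months with Cd86 at 0.983-fold and Cd80 at 0.764-fold.

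**Figure D3:**
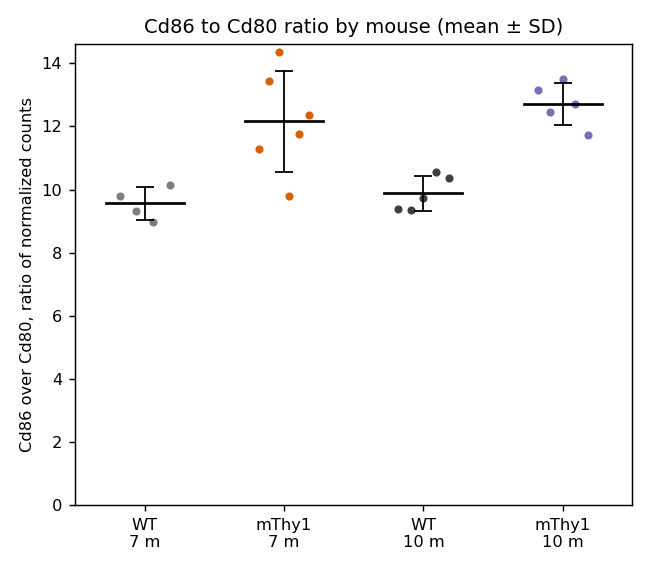
Ratio of Cd86 to Cd80 normalized counts (y axis, from 0) in each mouse, with mean and SD, for wild-type (WT) and mThy1-α-synuclein (mThy1) groups at 7 and 10 months (m). At 10 months the mThy1 mice lie between 11.7 and 13.5, all above the wild-type mice at 9.35 to 10.5.

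Icosl, the ligand of ICOS, did not differ between the genotypes beyond the spread between mice. At 7 months the wild-type counts were 5193, 5261, 5464 and 5692 and the mThy1-α-synuclein counts 5074 to 7893 with a median of 5975. At 10 months they were 4834, 5126, 5173, 5491 and 5680.3 against 4827, 4853, 5233, 5267 and 5902. The groups overlapped at both ages. The log2 fold changes were 0.15 (95% interval -0.07 to 0.37, limma adjusted p = 0.437) and -0.01 (-0.17 to 0.14, adjusted p = 0.932).

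Cd40 was low and varied more between mice of a group than between the genotypes. At 7 months it had 54.3, 71.3, 109 and 123 normalized counts in wild-type mice and 59.9 to 134 with a median of 87.8 in mThy1-α-synuclein mice. The values at 10 months were 64.6, 80.6, 87.6, 107 and 107 against 36.1, 44.8, 67.4, 112 and 124, where the mThy1-α-synuclein mice held both the lowest and the highest values. The log2 fold changes of 0.07 (95% interval -0.58 to 0.72, limma adjusted p = 0.922) and -0.35 (-1.05 to 0.35, adjusted p = 0.561) leave room for a change in either direction.

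Cd274, which encodes the PD-1 ligand PD-L1, stood beside Cd86 at 7 months. Its wild-type counts were 1226, 1303, 1494 and 1560.3, and the mThy1-α-synuclein counts ran from 1518 through a median of 1843 to 2575. Again 5 of 6 mThy1-α-synuclein mice lay above all wild-type mice. The log2 fold change of 0.45 (SE 0.124, 95% interval 0.18 to 0.71, 1.36-fold) gave a limma adjusted p of 0.0513, and edgeR (0.0472) and DESeq2 (0.0134) on recovered reads gave values under 0.05, as did the fits without mThy1-α-synuclein mouse 4 or 5 (lowest 0.0214). The other 8 limma fits without 1 mouse gave an adjusted p above 0.05, up to 0.161. It was also above 0.05 without a filter on low values (0.0648) and with a replicate block (0.0627).

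At 10 months Cd274 had 1305, 1379.7, 1433, 1642 and 2139 counts in wild-type and 1222, 1412, 1413, 1493 and 1769 in mThy1-α-synuclein mice. One wild-type mouse was the highest and the groups overlapped. The log2 fold change was -0.10 (95% interval -0.38 to 0.18, limma adjusted p = 0.696), and the difference between the ages, -0.55 (SE 0.192), did not pass the threshold (adjusted p = 0.09).

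Pdcd1lg2, which encodes the second PD-1 ligand PD-L2 and lies next to Cd274 on chromosome 19, was the scarcest member. It had 22.3, 26.0, 41.3 and 43.1 normalized counts in wild-type and 9.19 to 51.8, with a median of 22.7, in mThy1-α-synuclein mice at 7 months. At 10 months the values were 8.48, 9.41, 20.1, 32.5 and 43.6 against 6.82, 8.03, 18.2, 30.2 and 30.3. The groups overlapped at both ages, and the scarcest mice had 7 reads. The 95% intervals of the log2 fold change, -1.35 to 0.64 at 7 months (limma adjusted p = 0.701) and -1.45 to 0.96 at 10 months (0.834), were the widest of the 8 members. An antisense gene (A930007I19Rik, mean 9.75 normalized counts) overlaps it, and without strand their reads cannot be told apart.

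The log2 ratio of Pdcd1lg2 to Cd274 was lower by 0.80 in mThy1-α-synuclein mice at 7 months and by 0.15 at 10 months. Neither passed the exact permutation test (two-sided p = 0.0952 and 0.722, adjusted 0.127 and 0.722). Without mThy1-α-synuclein mouse 4 the unadjusted exact permutation p at 7 months was 0.0317, the only one under 0.05 of the 10 fits that left out a mouse.

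Vsir, which encodes VISTA, was the most abundant member and the one whose fold changes had the smallest standard errors (0.0898 at 7 months and 0.0634 at 10 months). Its wild-type counts at 7 months were 75324, 79602, 83099.8 and 95957, and the mThy1-α-synuclein counts ran from 74396 through a median of 85954 to 98730.4. At 10 months the values were 75981, 78992, 79697, 82612 and 83272 against 73288, 78514, 78789.6, 85849 and 86301. The ranges overlapped at both ages. The log2 fold changes were 0.04 (95% interval -0.15 to 0.24, limma adjusted p = 0.813) and 0.01 (-0.13 to 0.14, adjusted p = 0.969), so that changes beyond 1.18-fold up or 0.904-fold down at 7 months, and beyond 1.1-fold up or 0.914-fold down at 10 months, lay outside the intervals. Vsir lies inside the span of Cdh23, on the opposite strand, which had a mean of 1911 counts.

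In all, 1 of 8 members was called at 7 months (Cd276, lower), where 4.93% of 13887 genes were called, 2.7% lower and 2.23% higher. At 10 months 2 of 8 were called (Cd276 higher, Cd80 lower), where 7.67% of 13627 genes were called, 3.88% higher and 3.79% lower. In the difference between the ages the same pair was called, against 6.36% of 14457 genes (3.74% with a higher and 2.62% with a lower effect at 10 months). At an unadjusted p under 0.05 the members numbered 3, 2 and 4, where 21.3%, 23.5% and 21.9% of all genes passed. The median log2 fold change of the members was 0.07 at 7 months, with 6 positive and 2 negative, and -0.06 at 10 months, with 2 positive and 6 negative, while that of all genes was 0.0009 and -0.0026.

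**Figure D4:**
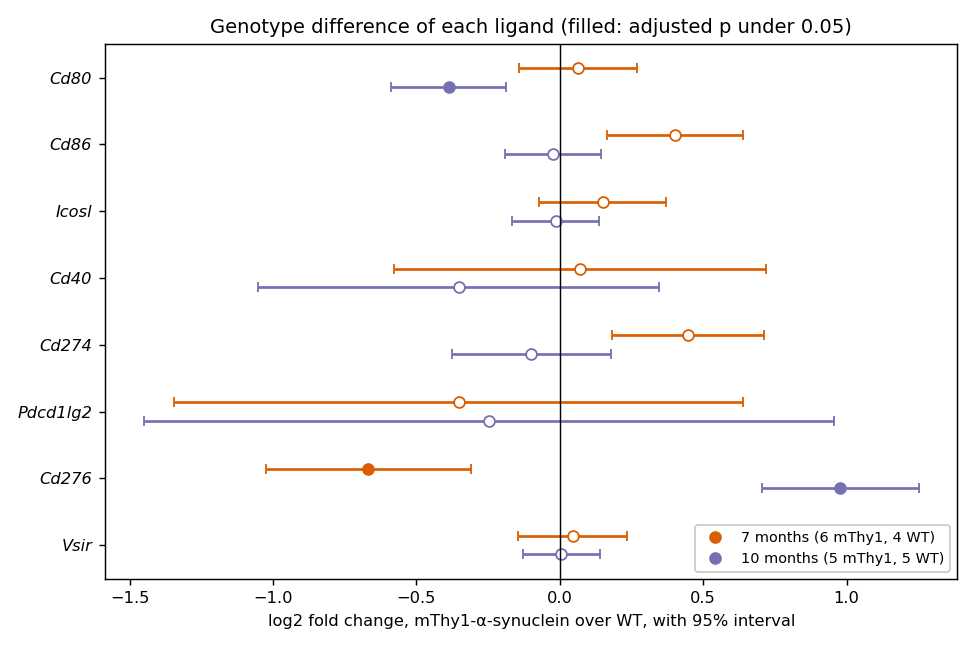
Log2 fold change of mThy1-α-synuclein over wild-type mice (x axis) with its 95% interval for each ligand at 7 months (orange) and 10 months (purple), where filled points passed an adjusted p of 0.05. Cd276 is filled on both sides of 0, Cd80 is filled at 10 months, and Cd86 and Cd274 at 7 months lie above 0 with adjusted p of 0.0522 and 0.0513.

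Members varied together within groups in 2 sets. Over the 20 mice, after each group mean was taken out, Pearson's r was 0.74 between Cd80 and Icosl, 0.69 between Cd80 and Cd86, 0.60 between Cd86 and Icosl and 0.65 between Icosl and Vsir. By rank, Spearman's rho of these pairs was 0.56, 0.77, 0.41 and 0.58. Cd276 had a Pearson's r of 0.53 with Vsir, 0.50 with Icosl, 0.43 with Cd86 and 0.14 with Cd80. The scarce members went with Cd274, with r of 0.64 between Cd40 and Pdcd1lg2, 0.60 between Cd40 and Cd274 and 0.56 between Cd274 and Pdcd1lg2. Between the sets r was lower and lowest between Cd40 and Vsir (-0.43). These points share libraries and size factors, and the values are a description.

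**Figure D5:**
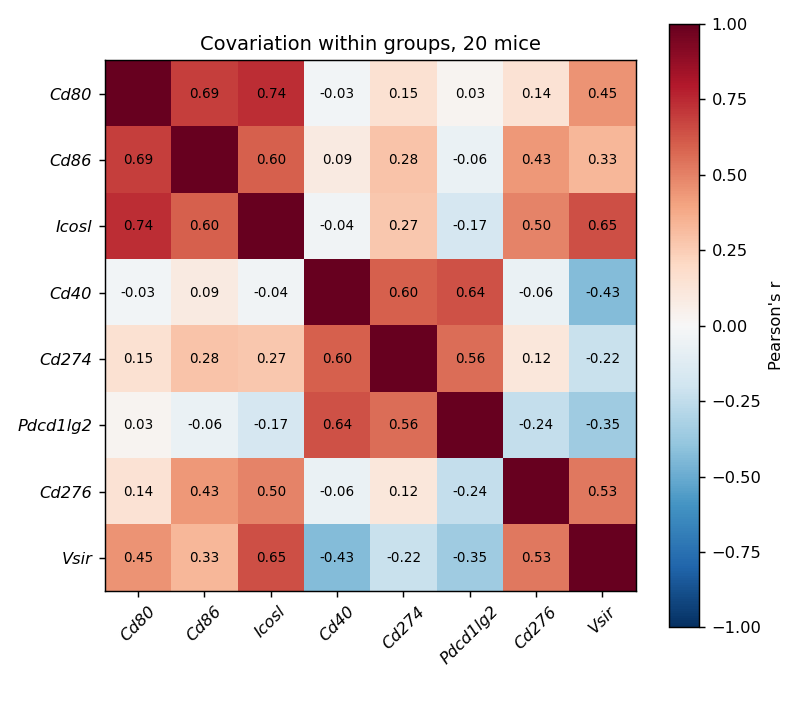
Pearson's r between members (both axes) of log2 values after group means were removed, over 20 mice, with the value in each cell and blue to red for -1 to 1. Cd80, Cd86 and Icosl form one block and Cd40, Cd274 and Pdcd1lg2 the other.

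The genes most like each member in this within-group variation, among all tested genes, were Cd83 (r = 0.90) and Cd48 (0.89) for Cd86, where Cd83 and Cd48 are themselves surface proteins of activated immune cells. Cd80 went with Ggta1 (0.87) and Gm2382 (0.85), Icosl with Slc11a1 (0.85) and Rnf145 (0.84), and Vsir with Unc93b1 (0.92), the carrier of endosomal Toll-like receptors, and Cd82 (0.90). The interferon-induced genes Ifi47 (0.82) and Gbp10 (0.81) were the nearest to Cd40, and Ms4a4c (0.81) and the nucleic acid sensor Zbp1 (0.81) to Pdcd1lg2. Cd274 went with Cpd (0.82) and Synj2 (0.81). Cd276 went with Il3ra (0.80), the interleukin-3 receptor, and Apba3 (0.80). All are over 20 mice and are the highest values of a search over all tested genes.

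A list of 15 receptors that T cells carry for these and related ligands was in the table, and 11 were tested. Cd40lg, which encodes the ligand of CD40, was listed at 0 in all 20 mice. Pdcd1 (PD-1), the receptor of PD-L1 and PD-L2, had group means of 915 to 1171 normalized counts and Havcr2 (TIM-3) of 18115 to 23715. The 5 T cell markers together summed to at most 509 in any mouse. Which cells the reads of these receptors came from was not tested. Icos, the receptor of ICOS ligand, was higher in mThy1-α-synuclein mice at 7 months, at 119 ± 16.0 (SD, n = 6) against 64.7 ± 19.1 (n = 4) normalized counts, with a log2 fold change of 0.91 (SE 0.236, limma adjusted p = 0.0375). At 10 months it was 72.8 ± 18.8 against 42.3 ± 10.1 with an adjusted p of 0.0972, and limma called none of the 11 (2 at an unadjusted p under 0.05, 0 with edgeR and 1 with DESeq2). In the difference between the ages none of the 11 was called by any tool, and 0 had an unadjusted p under 0.05. At 7 months the sums of 5 T cell markers overlapped between the genotypes, at 167 to 509 counts in wild-type and 147 to 239 in mThy1-α-synuclein mice. They did not overlap at 10 months, at 248 to 453 and 98.4 to 148. Cd3d, a T cell receptor subunit and the largest part of these sums, was lower at 10 months (log2 fold change -2.33, limma adjusted p = 0.00143). The listed subunits Cd3e and Cd3g were too low to be tested, and Cd5 and Lck were not called.

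Among 24 other costimulatory and checkpoint ligands, 23 were in the table and 16 or 17 were tested. At 7 months 1 was called, Tnfsf18 (GITR ligand), which was higher at 53.0 ± 11.2 against 21.8 ± 6.12 counts (log2 fold change 1.26, SE 0.324, limma adjusted p = 0.0354). At 10 months 1 was called, Tnfsf9 (4-1BB ligand), which fell by 0.85 on the log2 scale (67.4 ± 24.8 against 117 ± 12.0 counts, SE 0.237, limma adjusted p = 0.0432). In the difference between the ages Lgals9 (galectin-9, a ligand of TIM-3) was called at 0.35 (SE 0.0949, adjusted p = 0.0278), with 12672 against 14251 counts at 7 months and 12075 against 10695 at 10 months in mThy1-α-synuclein and wild-type mice. The medians of the list, 0.21 and -0.08, had the signs of those of the 8 members.

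The 18 genes of CD40 signaling, from TRAF adaptors to NF-kB subunits, held no call by limma in any comparison. At an unadjusted p under 0.05 there were 4, 3 and 4 at 7 months, at 10 months and in the difference between the ages, where edgeR called 0, 0 and 0 and DESeq2 0, 1 and 2. The median log2 fold change was 0.08 at 7 months and -0.06 at 10 months.

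In the pathway from interferon-γ to PD-L1, 14 genes were tested. Ifngr1, a subunit of the interferon-γ receptor, was higher at 7 months (37525 ± 2625 against 28066 ± 2260 counts, log2 fold change 0.42, SE 0.0756, limma adjusted p = 0.0048), beside the Cd274 values of that age. At 10 months Irf1, a transcription factor that PD-L1 induction is known to use, fell by 0.36 (SE 0.102, adjusted p = 0.0434). Cmtm4, a membrane protein known to protect PD-L1 from breakdown, rose by 0.27 at 10 months (SE 0.0622, adjusted p = 0.0208). The difference between the ages was called for Ifngr1 (-0.53, adjusted p = 0.013) and Cmtm4 (0.54, adjusted p = 0.0043).

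Of 6 genes for the turnover of such proteins at the membrane, Trim21, a ubiquitin ligase, was higher at 7 months (1138 ± 91.9 against 874 ± 19.1 counts, log2 fold change 0.38, SE 0.0856, limma adjusted p = 0.0195). At 10 months and in the difference between the ages limma and edgeR called none, with 0 and 3 at an unadjusted p under 0.05 and 0 and 2 called by DESeq2. MHC class II presentation, which gives the antigen signal that costimulation accompanies, had 9 tested genes. Ifi30, a lysosomal thiol reductase of antigen processing, was higher at 7 months (log2 fold change 0.43, SE 0.0992, limma adjusted p = 0.0203) and lower in the difference between the ages (-0.75, SE 0.161, adjusted p = 0.00793). At 10 months 8 of 9 had a negative log2 fold change, with a median of -0.64, and limma and edgeR called 0, where 7 had an unadjusted p under 0.05 and DESeq2 called 4.

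Within 500 kb of Cd276, Neo1 was called at 7 months, of 6 tested neighbours, and in the direction opposite to Cd276 (log2 fold change 0.46, SE 0.127, limma adjusted p = 0.0473), with a difference between the ages of -0.68 (adjusted p = 0.0247). Near Cd274 and Pdcd1lg2, Ermp1 was called in the difference between the ages (-0.41, adjusted p = 0.00596), and near Cd86 only Stfa2l1 and Gm5483 were called, both lower at 10 months. The other called neighbours were Sumo3, Lrrc3 and Pfkl near Icosl, Elmo2 and Slc13a3 near Cd40, and Spock2 and Slc29a3 near Vsir.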

How the data were processed

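Per the labels and the methods of the study, reads were trimmed with Trim Galore 0.6.7, mapped to mm10 with HISAT2 2.2.1 and counted per gene with featureCounts. The deposited signal values are those counts after the authors scaled each mouse by its DESeq2 size factor. The values of 19 mice were whole multiples of a step (tolerance 0.02, 100% of values). In mThy1-α-synuclein mouse 5 at 10 months the step was too close to 1 for that test and was fitted to its values. The steps matched size factors recomputed within an age, so the ages were normalized separately. Multiplying back gave whole reads.

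Members and lists were chosen with earlier results of these data known, and none is independent evidence. Genes were tested with limma 3.58.1 (R 4.3.3, trend, robust) on log2(value + 1), which understates changes of low genes, where a value of 10 was reached in at least 4 mice at 7 months, 5 at 10 months and 4 of 20 for the difference between the ages. p-values were adjusted over all tested genes (Benjamini-Hochberg, threshold 0.05), and genes past it are said to be called. Ratios within a mouse, log2 with 1 added to each value, were tested by two-sided exact permutation. Alternatives were edgeR 4.0.16 and DESeq2 1.42.0 on recovered reads, TMM scaling, pseudocounts of 0.5 and 5, filters, a replicate block and leaving out each mouse. Named genes are the members, called genes of the lists, the 2 genes most correlated with each member and called coding neighbours within 500 kb. The lists are T cell receptors of the ligands, other ligands, CD40 signaling, interferon-γ, membrane turnover, MHC class II and cell type markers. Positions are GENCODE (mm10), found for 98.2% of genes, and promoters RefSeq (GRCm38.p6), matched for 6 of 8 members. The p-values set a difference between groups against the spread between mice. Methylation and behavior were not analysed here. Results for some genes are not reported.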

Additional observations from a re-analysis of the deposited data

Results flagged for a closer look

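Cd276 and Cd80 were singled out because their genotype effects differed between the ages in the fit of all 20 mice, by 1.65 and -0.45 on the log2 scale (limma adjusted p = 0.000189 and 0.0454). For Cd276 the effect was -0.67 at 7 months and 0.98 at 10 months, and for Cd80 it was 0.06 and -0.39. The ages were handled separately, so what differs between them cannot be told apart from handling.

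Cd80 in mThy1-α-synuclein mouse 1 at 7 months stood apart from its group. Its 1759.9 normalized counts were next to 1409 in the nearest mouse, and this gap was 0.695 of the range of the group, above the critical value for 6 mice. It was 1 of 32 sets of a member and a group that were looked at, where chance gives about 1 in 20. Without this mouse the log2 fold change of Cd80 at 7 months was -0.0038 in place of 0.06, and the difference between the ages was -0.38 (limma adjusted p = 0.0624).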

How the results depend on the processing

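The rise of Cd276 at 10 months and its difference between the ages passed the threshold in each setting run, with log2 values of 0.88 to 1.04 and 1.54 to 1.75 when each mouse was left out. The numbers of genes called without each mouse in turn ran from 280 to 860 at 7 months (lowest without wild-type mouse 1), from 489 to 1232 at 10 months (lowest without wild-type mouse 2) and from 618 to 1097 for the difference between the ages, against 684, 1045 and 920. DESeq2 called 1166 genes at 7 months and 1697 at 10 months. Of the members, leaving out 1 mouse gave 0 to 3 calls at 7 months, 1 to 2 at 10 months and 1 to 3 for the difference. At 7 months 3 members were called with a pseudocount of 5, with edgeR, with DESeq2 and with TMM scaling, which added Cd86 and Cd274 to Cd276. Without a filter on low values 1 member was called for the difference between the ages.

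Mice of both genotypes carry the same numbers in the labels, which give no pairing. Deviations from the group means of mice with the same number correlated between -0.134 and 0.0995. A correlation over all tested genes cannot exclude a pairing that acts on few of them. With the number as a replicate block 414 genes were called at 7 months and 482 for the difference between the ages, with 0 members at 7 months (Cd276 adjusted p = 0.098) and 1 for the difference (Cd276, 0.00897, while Cd80 had 0.0612).

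Signs turned for values that were not called, among them Pdcd1lg2 at 10 months with -0.25 over all mice. Leaving out 1 mouse gave log2 fold changes at 7 months of -0.0038 to 0.094 for Cd80, -0.14 to 0.25 for Cd40 and -0.0027 to 0.11 for Vsir. At 10 months it gave -0.084 to 0.0049 for Cd86, -0.059 to 0.014 for Icosl, -0.17 to 0.017 for Cd274, -0.51 to 0.045 for Pdcd1lg2 and -0.020 to 0.039 for Vsir. For the difference between the ages it gave -0.16 to 0.40 for Pdcd1lg2 and -0.11 to 0.0086 for Vsir, and Pdcd1lg2 was -0.070 with edgeR, -0.066 with DESeq2 and -0.0072 with the block. The log2 ratio of Pdcd1lg2 to Cd274 ran from -0.99 to -0.55 at 7 months and from -0.37 to 0.10 at 10 months. With the length of the longest transcript the mean of the group means per kb was 422 for Cd80, 5791 for Cd86 and 1949 for Icosl. With the length of all exons the mean over all mice was 362, 4074 and 1194. These values differ in the averaging as well as in the length.

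Groups of 4 to 6 mice limit what can be seen, and for Cd40 and Pdcd1lg2 the low counts add to the spread. The causes of these shifts were not tested.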
